A study of Mus musculus with 6 samples.

Results

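The primary cilium is a single antenna-like projection that grows from the mother centriole of most mammalian cells, and 53 genes for its transport machinery and its gate were followed here in WT and Kansl1 KO mouse embryonic fibroblasts. The genes were listed by name and role, with earlier results of these data known, and their values were no part of the rule. They cover the 2 intraflagellar transport complexes, IFT-B with 12 genes and IFT-A with 6. The motors add 4 genes of dynein-2 and 3 of kinesin-2. A further 7 genes encode the BBSome, 3 the chaperonin-like Bardet-Biedl proteins, 3 ciliary small GTPases and 14 the transition zone, and Ofd1 stands for the centriole. All 53 were among the 26898 genes of the expression table, and all passed the filter that 14799 genes passed, a group mean of 1 TPM or more in WT or KO. TPM values correct reads for gene length and are scaled to the same total in every sample.

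RNA was sequenced from 6 primary fibroblast samples of C57BL/6 mice, prepared from embryos at E12.5 and used at passage 3. The WT group (samples WT 4, WT 5 and WT 8) was Kansl1fl/fl, and the KO group (KO 3, KO 7 and KO 10) was Kansl1fl/fl/CAG-cre, in which the ubiquitous CAG promoter drives a tamoxifen-inducible Cre recombinase. Both groups received 1 μM tamoxifen for 48 h, so the agent was shared, but Cre was present only in the KO group and the loss of Kansl1 and the presence of Cre cannot be told apart. Kansl1 encodes a scaffold subunit of the NSL complex, which carries the histone acetyltransferase Kat8 to promoters.

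Kansl1 itself (chromosome 11, chr11:104333229-104468861 in mm10, minus strand) was measured at 28.5, 26.7 and 24.4 TPM in WT 4, WT 5 and WT 8 and 13.7, 15.8 and 14.4 TPM in KO 3, KO 7 and KO 10. Every KO sample lay below every WT sample, and about 55.1% of the WT level remained (log2 fold change -0.82, SE 0.11, adjusted p = 0.000859). This level counts reads over the exons of the whole gene. How much intact transcript or protein remained cannot be read from it. Depth, recovered from the table as whole reads on genes, was 17655495 in KO 3 and between 22812595 and 27718259 in the other samples. Of 10 fibroblast markers, Col1a1, Vim and Thy1 averaged 4614, 2389.8 and 513 TPM in WT, whereas Dcn, Lum and Pdgfra averaged 4.53, 3.52 and 9.17 TPM. WT 4 was the lowest of all 6 samples in 8 of the 10, with Col1a1 at 3080.0 TPM against 5805 and 4958 TPM in WT 5 and WT 8. In the same sample 29 of the 53 cilium genes had their highest WT level in the TPM as deposited. Without the 2 most abundant RNAs, WT 4 was the highest WT sample in 20 genes and the lowest in 21. None of the 10 fibroblast markers was called by limma or voom (1 was higher at an unadjusted p below 0.05). Of 8 macrophage markers 5 were tested and all 5 lay above the WT range in KO, beside 13.3% of all tested genes. Lyz2 was called higher (1.59), beside 1.64% of all tested genes, while Ptprc and Itgam averaged under 0.2 TPM. The summed level of the 8 macrophage markers was 32.2 to 37.6 TPM in WT and 71.1 to 147 TPM in KO, and the part of these cells in the results on cilium genes was not tested. In RNA from a whole culture, fewer cells of a type and less RNA per cell cannot be told apart.

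Ciliary proteins are made in the cell body and carried into the cilium. IFT-B trains are pulled outward by kinesin-2, and IFT-A trains with dynein-2 bring material back. The BBSome is a coat-like adaptor that links membrane proteins to the trains, and the transition zone at the cilium base is a gate that decides which proteins enter. In fibroblasts the cilium is best known as the site where Hedgehog signals are received. Mutations in these genes cause human ciliopathies such as Bardet-Biedl, Meckel and Joubert syndromes and skeletal dysplasias.

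In KO, 16 of the 53 cilium genes were lower than in WT and none was higher, and nearly all of the others had fitted values below 0. A gene was called when its Benjamini-Hochberg adjusted p from limma on log2(TPM + 1) was below 0.005 and its log2 fold change was beyond 0.5 in either direction, the thresholds of the study. By this rule the share called lower was 30.2%, with 37 genes not called, against 9.03% lower and 1.64% higher among all 14799 genes tested. At an unadjusted limma p below 0.05, 40 cilium genes were lower and 0 higher, against 27.2% and 12.2% of tested genes, and voom on recovered reads also called 0 higher. The fitted change was negative for 51 of the 53 genes, compared with 57.4% of all tested genes. In 41 genes every KO sample was below every WT sample, in 12 the groups overlapped and in none was KO above WT, while 29.9% of all tested genes had KO wholly below WT and 13.3% wholly above. The median log2 fold change was -0.54 over the cilium genes and -0.07 over all tested genes, and the median KO level was 59.9% of WT against 94.5%. The KO mean was below 50% of the WT mean in 17 cilium genes (32.1%) and in 9.40% of tested genes.

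**Figure D1:**
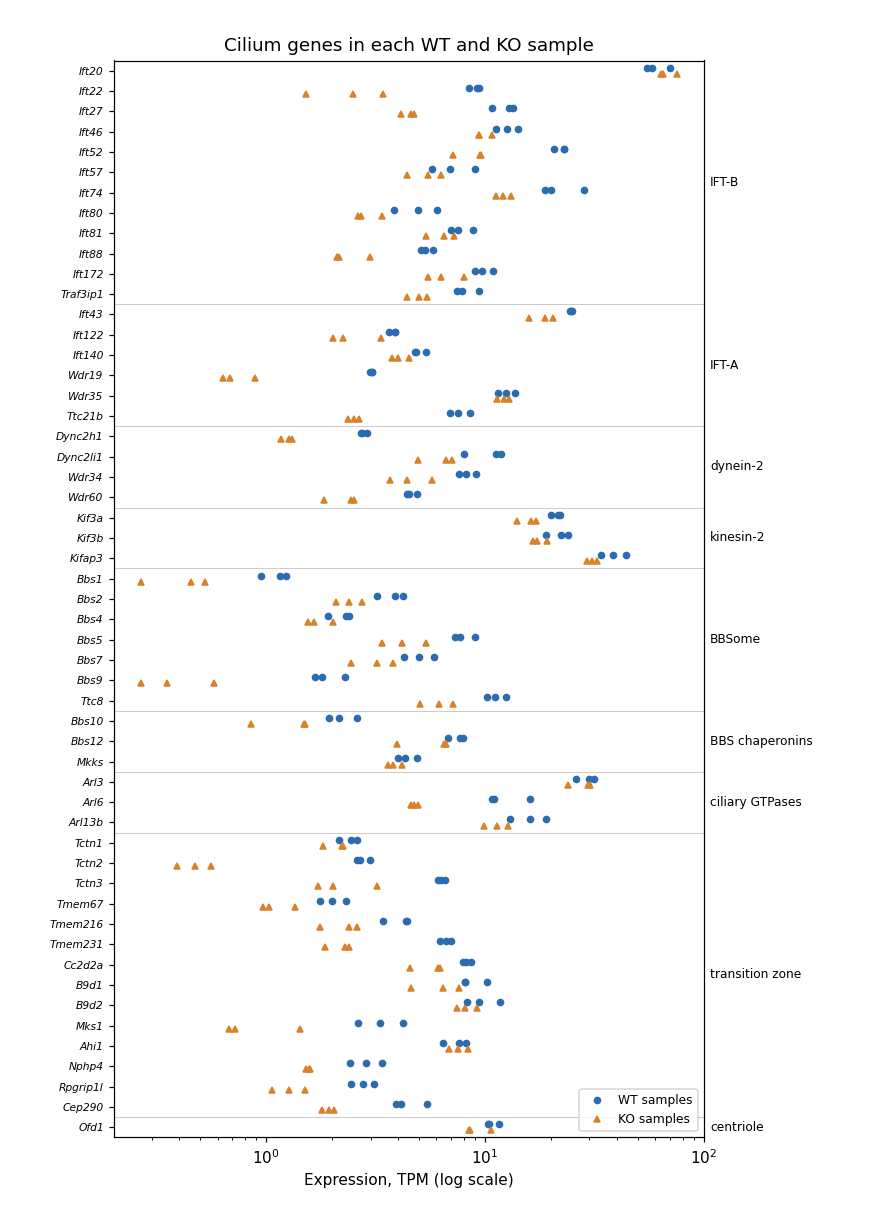
Expression of each of the 53 cilium genes in TPM on a log axis, with WT samples as circles and KO samples as triangles, ordered by role. In 41 genes all 3 KO samples lie to the left of all 3 WT samples, and in the other 12 the samples overlap.

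**Figure D2:**
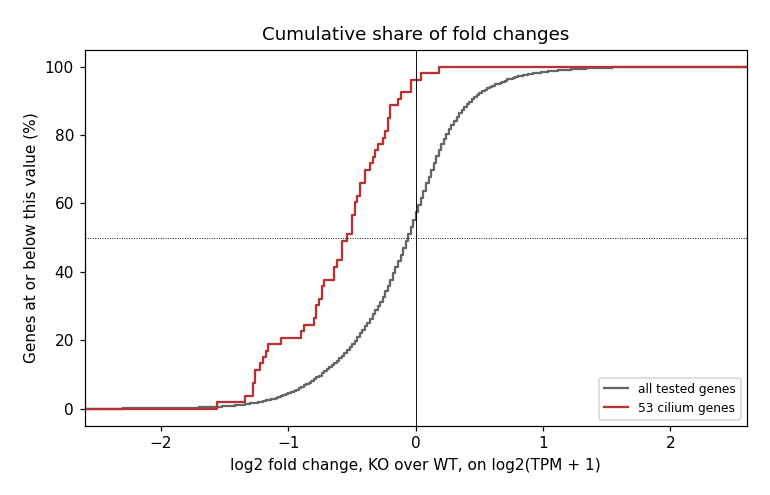
Cumulative share of log2 fold changes (KO over WT, on log2(TPM + 1)) for the cilium genes and for all tested genes. The median lies at -0.54 for the cilium genes and at -0.07 for all tested genes.

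These counts moved with single samples and with the test. Leaving out WT 4, WT 5, WT 8, KO 3, KO 7 or KO 10 gave 10, 8, 8, 8, 14 and 9 genes lower, beside 5.60%, 4.16%, 5.71%, 4.39%, 6.34% and 5.31% of tested genes. In every one of these 6 fits Ift22, Ift27, Ift52, Wdr19, Ttc21b, Arl6, Tctn2 and Tmem231 were called. On recovered reads, where low genes are not pulled toward 0 by the added 1 TPM, voom called 28 of 53 lower and 0 higher, against 14.5% and 2.93% of tested genes. The 28 held all 16 and added Ift80, Ift172, Traf3ip1, Dync2h1, Wdr34, Bbs1, Bbs5, Tmem67, Tmem216, Cc2d2a, Nphp4 and Rpgrip1l.

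In the TPM as deposited, level differences between samples ran through most of the list. The 53 genes summed to 567, 549 and 490 TPM in WT 4, WT 5 and WT 8 and to 339, 411 and 391 TPM in KO 3, KO 7 and KO 10. KO 3 was the lowest KO sample in 41 genes and KO 7 the highest in 39, and WT 8 was the lowest WT sample in 39. The single most abundant RNA took 25.6% of all TPM in KO 3 and 24.3% in WT 8, and 15.5% to 19.9% in the other 4 samples. Without the 2 most abundant RNAs, a setting chosen after the data were seen, the sums were 693, 701 and 689 TPM in WT and 485, 502 and 510 TPM in KO. The samples of a group then lay closer together and the groups stayed apart. KO 3 was then lowest in 25 genes and WT 8 in 17, and 19 of 53 genes were called lower, beside 11.3% of tested genes.

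Promoter sequence was examined for the letters of the X-box, the DNA element bound by RFX factors, which control many ciliary genes. RefSeq (GRCm38.p6) gave a window from 250 bases before to 50 after the start for 48 of the 53 genes. Tmem67, Ift81, Dync2li1, Ift122 and Ift80 had none. The letters GTNNCC and NGNAAC, separated by 0 to 3 bases and read on both strands, occurred in 15 of 48 genes (31.2%), in 6.72% of 9565 tested genes with a window and in 7.86% of tested genes called lower. Called and uncalled cilium genes held them in 6 of 16 (37.5%) and 9 of 32 (28.1%). The shorter letters GTTGCC, read on both strands, went the other way, in 6 of 16 called (37.5%) and 16 of 32 uncalled genes (50%). They occurred in 45.8% of the 48 cilium genes and 14.5% of tested genes. The letters are a description of the window and not a mapped binding site, and this search was chosen after the data were seen. The 250 bases before the start are shown for 4 genes called lower that hold a match and for 2 of the steadiest calls that hold none, Ttc21b and Ift52. Capitals mark the match. Positions are chr5:136907900-136908149 for Ift22, chr5:124598499-124598748 for Tctn2, chr11:87852965-87853214 for Mks1 and chr2:163017103-163017352 for Ift52 on the plus strand, and chr19:40612232-40612481 for Tctn3 and chr2:66256618-66256867 for Ttc21b on the minus strand.
Ift22: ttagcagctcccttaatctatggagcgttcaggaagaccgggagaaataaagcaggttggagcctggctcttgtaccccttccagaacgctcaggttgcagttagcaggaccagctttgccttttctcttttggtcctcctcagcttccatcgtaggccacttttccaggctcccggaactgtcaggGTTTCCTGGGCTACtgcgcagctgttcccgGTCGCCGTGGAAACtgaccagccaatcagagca
Tctn2: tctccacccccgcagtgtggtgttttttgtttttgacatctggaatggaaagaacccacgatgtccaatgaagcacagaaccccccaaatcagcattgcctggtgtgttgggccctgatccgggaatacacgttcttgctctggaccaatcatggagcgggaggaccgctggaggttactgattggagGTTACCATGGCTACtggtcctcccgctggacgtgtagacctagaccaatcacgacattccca
Tctn3: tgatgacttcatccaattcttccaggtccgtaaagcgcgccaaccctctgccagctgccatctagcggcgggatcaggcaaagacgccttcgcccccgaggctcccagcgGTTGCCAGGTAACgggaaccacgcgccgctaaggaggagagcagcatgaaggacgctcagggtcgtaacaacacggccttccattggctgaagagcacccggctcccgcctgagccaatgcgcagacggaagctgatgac
Mks1: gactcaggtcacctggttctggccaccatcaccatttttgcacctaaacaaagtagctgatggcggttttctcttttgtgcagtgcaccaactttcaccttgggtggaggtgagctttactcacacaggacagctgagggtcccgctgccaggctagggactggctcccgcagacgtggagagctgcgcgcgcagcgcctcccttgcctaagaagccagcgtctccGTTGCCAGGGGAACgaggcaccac
Ttc21b: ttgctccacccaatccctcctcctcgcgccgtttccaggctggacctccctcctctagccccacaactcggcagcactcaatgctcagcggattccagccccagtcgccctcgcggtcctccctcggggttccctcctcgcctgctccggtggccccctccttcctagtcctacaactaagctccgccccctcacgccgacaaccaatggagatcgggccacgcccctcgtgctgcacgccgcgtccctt
Ift52: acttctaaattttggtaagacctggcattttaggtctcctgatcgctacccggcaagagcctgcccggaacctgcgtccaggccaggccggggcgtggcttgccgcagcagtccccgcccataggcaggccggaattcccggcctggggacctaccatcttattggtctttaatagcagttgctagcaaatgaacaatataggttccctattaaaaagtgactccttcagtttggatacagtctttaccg
In Ift22 a pair of matches begin 63 and 33 bases before the start, and in Tctn2, Tctn3 and Mks1 the match begins 62, 140 and 24 bases before it. Tmem231 (called lower) holds GTTGCCGTGGAGAC from 11 bases after its start. A match did not go with a lower level in each gene. Tctn1, whose window holds the fully palindromic GTTGCCCGGGCAAC from 36 bases after the start, and Ahi1, with GTTACCTAGGCAAC, were not called and overlapped between groups. Ttc21b and Ift52 hold no such letters and were called lower.

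IFT-B carries tubulin and other cargo outward, and 5 of its 12 genes (41.7%) were lower, beside 9.03% of all tested genes. Ift22 (chr5:136908150-136915404), a Rab-like subunit, was measured at 9.23, 9.42 and 8.42 TPM in WT 4, WT 5 and WT 8 and 1.52, 3.43 and 2.48 TPM in KO 3, KO 7 and KO 10. No KO sample reached 50% of any WT sample, and 27.5% of the WT mean remained (log2 fold change -1.56, SE 0.20, adjusted p = 0.000664). Ift27 (chr15:78159463-78174107), a Rab-like GTPase needed for BBSome exit, was at 13.5, 12.9 and 10.8 TPM in the WT samples and 4.61, 4.76 and 4.15 TPM in the KO samples. The KO samples of Ift27 were tightly grouped and far below WT (log2 fold change -1.28, SE 0.13, adjusted p = 0.000275). Ift52 (chr2:163017354-163046141), a scaffold of the IFT-B core, was at 23.1, 22.9 and 20.8 TPM in the WT samples and 7.12, 9.54 and 9.63 TPM in the KO samples, without overlap (log2 fold change -1.26, SE 0.13, adjusted p = 0.000344). Ift88 (chr14:57424062-57517936), the core subunit mutated in the Tg737 polycystic kidney mouse, was at 5.79, 5.35 and 5.08 TPM in the WT samples and 2.11, 2.99 and 2.15 TPM in the KO samples. Its KO samples were all below WT (log2 fold change -0.91, SE 0.15, adjusted p = 0.00238), yet it passed the threshold in 1 of the 6 fits without a sample, that without KO 7 (adjusted p across the fits 0.00287 to 0.01). Ift74 (chr4:94614491-94693229), which binds tubulin together with Ift81, was at 28.5, 20.1 and 18.9 TPM in the WT samples and 11.2, 13.2 and 12.1 TPM in the KO samples. Its change (log2 fold change -0.82, SE 0.16, adjusted p = 0.00449) was called in no fit without a sample (0.0052 to 0.0205). WT 4 stood above the other WT samples in Ift74.

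The other 7 IFT-B genes were not called. Traf3ip1 (-0.64), Ift80 (-0.59), Ift172 (-0.52) and Ift46 (-0.33) had KO below WT without overlap. Ift57, Ift81 and Ift20 overlapped. Ift20, which also works at the Golgi and was the most abundant of the 53 genes, was at 57.9, 70.2 and 54.8 TPM in the WT samples and 63.6, 65.2 and 75.6 TPM in the KO samples with a log2 fold change of 0.16 (95% interval -0.11 to 0.43). It was the largest positive value in the list. Within this 1 complex the subunits thus ranged from 27.5% to 112% of WT.

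IFT-A, the return complex, had 2 of its 6 genes (33.3%) lower, beside 9.03% of all tested genes. Ttc21b (chr2:66184327-66256617), a peripheral subunit also called Ift139, was measured at 8.55, 7.53 and 6.90 TPM in WT 4, WT 5 and WT 8 and 2.36, 2.65 and 2.52 TPM in KO 3, KO 7 and KO 10. The KO samples spanned less than 0.4 TPM and all were below WT (log2 fold change -1.30, SE 0.13, adjusted p = 0.000326). Wdr19 (chr5:65199696-65260415), the core subunit Ift144, was at 3.04, 3.05 and 2.97 TPM in the WT samples and 0.683, 0.888 and 0.636 TPM in the KO samples, so 24.3% of WT remained (log2 fold change -1.22, SE 0.17, adjusted p = 0.00098). Both calls held in each fit without 1 sample. Ift43 (-0.41), Ift122 (-0.45) and Ift140 (-0.24) had KO below WT without being called, and Wdr35, a peripheral subunit at 13.7, 12.5 and 11.5 TPM in the WT samples and 11.3, 12.9 and 12.2 TPM in the KO samples, overlapped. The fitted change of Wdr35 was -0.04, with a 95% interval of -0.30 to 0.22, and its sign turned in other settings.

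Dynein-2, the motor for the return trip, had KO wholly below WT in all 4 of its listed genes, beside 29.9% of all tested genes. Dynein light chain genes, counted below with the further transport genes, went both ways and none was called. Dynlrb1 (0.20) lay wholly above WT, and Tctex1d2 (-0.12), Dynll1 (-0.01) and Dynll2 (0.21) overlapped. Dynlt1b (-0.40) and Dynlt3 (-0.26) lay wholly below WT. Of the 4 listed dynein-2 genes, 1 was called lower, beside 9.03% of all tested genes. Wdr60 (chr12:116206262-116263022), an intermediate chain, was at 4.52, 4.88 and 4.42 TPM in the WT samples and 1.83, 2.53 and 2.43 TPM in the KO samples (log2 fold change -0.79, SE 0.15, adjusted p = 0.00455), and was not called in any fit without 1 sample (0.00862 to 0.022). Its partner Wdr34 was at 8.16, 7.59 and 9.12 TPM in the WT samples and 3.67, 5.73 and 4.42 TPM in the KO samples (log2 fold change -0.74, SE 0.16, adjusted p = 0.00754). Of the fits without 1 sample, only that without KO 7 called Wdr34. The heavy chain Dync2h1, which contains the motor, was at 2.90, 2.76 and 2.72 TPM in the WT samples and 1.17, 1.27 and 1.32 TPM in the KO samples (log2 fold change -0.75, SE 0.16, adjusted p = 0.00672), and 44.8% of WT remained. The light intermediate chain Dync2li1 had a change of -0.65 (adjusted p = 0.0205). All 4 listed dynein-2 genes were lower at an adjusted p below 0.05, where 16.6% of tested genes were lower and 4.69% higher. Kinesin-2 had smaller values. Kif3a, a motor subunit, was at 21.5, 21.9 and 20.1 TPM in the WT samples and 14.1, 17.2 and 16.3 TPM in the KO samples (log2 fold change -0.40, SE 0.11, adjusted p = 0.0252), Kifap3, the cargo-binding subunit, had -0.31 and Kif3b, the other motor subunit, overlapped with -0.28. Neither limma nor voom called a kinesin-2 gene. All 3 were lower at an unadjusted limma p below 0.05, beside 27.2% of all tested genes.

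**Figure D3:**
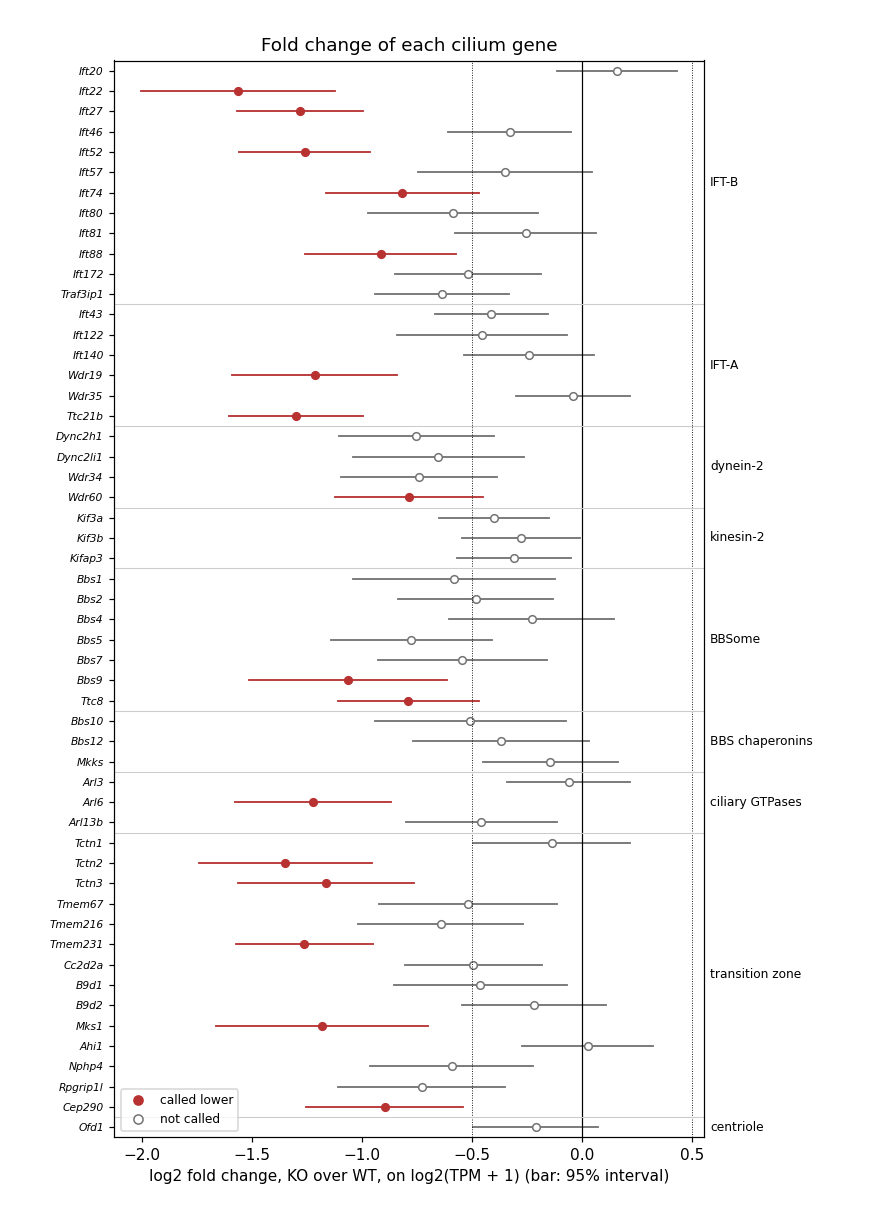
Log2 fold change (KO over WT, on log2(TPM + 1)) of each cilium gene with its 95% interval from limma, ordered by role, with genes called lower filled. Dotted lines mark 0.5 in each direction; 16 genes are called, from Ift22 at -1.56 to Wdr60 at -0.79, and only Ift20 and Ahi1 lie above 0.

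Among the BBSome and its partners, Bbs9 and Ttc8 of the 7 BBSome genes and the GTPase Arl6 were called lower. The share called lower among all tested genes was 9.03%. Bbs9 (chr9:22475715-22888280), a scaffold subunit, was at 2.29, 1.68 and 1.81 TPM in WT 4, WT 5 and WT 8 and 0.352, 0.579 and 0.269 TPM in KO 3, KO 7 and KO 10. The KO level was 20.8% of WT (log2 fold change -1.06, SE 0.20, adjusted p = 0.00421), but it rested on as few as 15 reads in KO 10 and was not called in any fit without 1 sample (0.008 to 0.0159). Ttc8 (chr12:98920574-98983238), also known as Bbs8, was at 12.5, 11.1 and 10.2 TPM in the WT samples and 5.05, 7.18 and 6.16 TPM in the KO samples, with no overlap (log2 fold change -0.79, SE 0.14, adjusted p = 0.00351), and was called in 1 of 6 such fits, that without KO 7 (0.00427 to 0.0112). Bbs5, which binds membrane lipids, was at 7.27, 9.0 and 7.72 TPM in the WT samples and 3.37, 5.36 and 4.17 TPM in the KO samples and just missed (log2 fold change -0.78, SE 0.16, adjusted p = 0.007). Bbs1, Bbs2 and Bbs7 had KO below WT with changes of -0.58, -0.48 and -0.54, and Bbs4 overlapped. Arl6 (chr16:59612949-59639391), the small GTPase that recruits the BBSome to membranes, was at 16.1, 11 and 10.8 TPM in the WT samples and 4.72, 4.97 and 4.59 TPM in the KO samples. Its KO samples were close together and 37.7% of WT remained (log2 fold change -1.22, SE 0.16, adjusted p = 0.000747), a call that held in every fit without 1 sample. Arl13b, a GTPase of the ciliary membrane, had -0.46 (adjusted p = 0.0507), and Arl3, which releases lipidated cargo, overlapped at -0.06. None of the 3 chaperonin-like genes was called by limma or voom. At an unadjusted limma p below 0.05, 1 was lower, beside 27.2% of all tested genes. Bbs10 had the largest value among them (log2 fold change -0.51, SE 0.19, adjusted p = 0.0793), Bbs12 was -0.37 and Mkks overlapped (-0.14).

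The transition zone held 5 genes of 14 called lower (35.7%), beside 9.03% of all tested genes. Tctn2 and Tctn3 encode tectonics, membrane-associated proteins of the gate. Tctn2 (chr5:124598749-124627738) was at 3.0, 2.59 and 2.67 TPM in WT 4, WT 5 and WT 8 and 0.562, 0.471 and 0.391 TPM in KO 3, KO 7 and KO 10. With 17.2% of WT remaining it had the lowest KO to WT ratio of the 53 genes (log2 fold change -1.35, SE 0.18, adjusted p = 0.00076). Tctn3 (chr19:40596446-40612233) was at 6.30, 6.55 and 6.09 TPM in the WT samples and 1.72, 3.22 and 2.02 TPM in the KO samples (log2 fold change -1.16, SE 0.18, adjusted p = 0.00158), and was not called without WT 5, WT 8 or KO 3 (0.00128 to 0.00609). The third tectonic, Tctn1, was at 2.45, 2.61 and 2.15 TPM in the WT samples and 1.82, 2.25 and 2.21 TPM in the KO samples and overlapped, with a 95% interval of -0.49 to 0.22 that does not meet the -1.74 to -0.95 of Tctn2. Exons of other genes cover 2113 of the 8295 exon bases of Tctn1 on the opposite strand, so its value may hold reads of those genes.

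Tmem231 (chr8:111912011-111933881), a membrane protein of the gate, was at 6.64, 6.96 and 6.24 TPM in the WT samples and 2.38, 2.31 and 1.86 TPM in the KO samples. All KO samples were far below WT (log2 fold change -1.26, SE 0.14, adjusted p = 0.000379) and the call held in every fit without 1 sample. Mks1 (chr11:87853215-87863803), a B9-domain protein mutated in Meckel syndrome, was at 2.62, 3.33 and 4.22 TPM in the WT samples and 0.680, 1.43 and 0.720 TPM in the KO samples. KO 7 was well above the other KO samples yet below WT (log2 fold change -1.18, SE 0.22, adjusted p = 0.00358), and the call was lost without WT 5, WT 8, KO 3 or KO 10 (0.00386 to 0.0158). Cep290 (chr10:100487558-100574840), thought to bridge microtubules and membrane, was at 5.41, 4.13 and 3.90 TPM in the WT samples and 1.93, 2.04 and 1.80 TPM in the KO samples (log2 fold change -0.90, SE 0.16, adjusted p = 0.00308), and no fit without 1 sample called it (0.00724 to 0.0124). Of the 9 others, Rpgrip1l (-0.73), Tmem216 (-0.64), Nphp4 (-0.59), Tmem67 (-0.52), Cc2d2a (-0.49) and B9d1 (-0.46) had KO below WT. Tctn1, B9d2 and Ahi1 overlapped, and Ahi1 was at 0.03 (95% interval -0.27 to 0.32). Ofd1, at the distal centriole, also overlapped (log2 fold change -0.21, SE 0.13, adjusted p = 0.252).

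**Figure D4:**
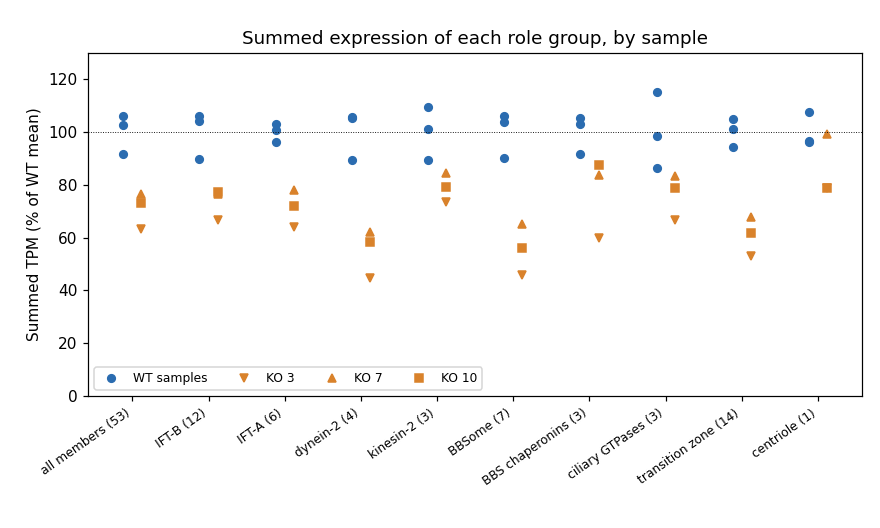
Summed TPM of the genes of each role group in each sample, as a percentage of the WT mean of that group, with the number of genes in brackets. For all 53 genes the KO samples lie below every WT sample, and the dynein-2, BBSome and transition zone sums lie lowest, whereas Ofd1 overlaps.

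Called and uncalled cilium genes overlapped in level and in length. The median WT level was 6.46 TPM for the 16 called and 7.78 TPM for the 37 others, and the median exon length was 4336 and 5087 bases. In 10 of the 53, another protein-coding gene starts on the opposite strand within 1000 bases upstream, and 1 of these 10 neighbours (Smc4, beside Ift80) was called lower, against 9.03% of tested genes. Neighbours whose start lies inside the cilium gene were not counted. Cep290 and Tctn3 were the called genes with such a neighbour. Tmtc3, 208 bases from Cep290, was at 90.5% of WT and overlapped, and Dcun1d5, 74 bases from the uncalled Dync2h1, was at 94.3% and overlapped. Mbd4, 99 bases from the uncalled Ift122, was at 51.0% of WT without overlap but not called (-0.71, adjusted p = 0.0139), and Fto, 263 bases from the uncalled Rpgrip1l, was at 81.6%, also without overlap and not called. Entpd1, 133 bases from Tctn3, was at 48.6% of WT but not called (-0.57, adjusted p = 0.0911). Among the called genes, exons of another gene cover 881 bases of Cep290, 67 of Ift88 and 55 of Arl6 on the opposite strand. Some uncalled genes also have such overlaps, the largest being 2113 bases of Tctn1. Whether reads were counted by strand is not given in the sources used here, so reads there may come from either gene.

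Genes that work beside these were counted in the same fit, where at an unadjusted p below 0.05 the higher genes numbered 0 for further transport genes, 1 for Hedgehog, 1 for basal body, 1 for disassembly and 0 for proliferation, beside 12.2% of all tested genes. Voom called 1 gene higher in these 5 lists together, in the Hedgehog list. Of 16 tested further transport and BBSome genes, 2 (12.5%) were called lower and 0 higher, with a median of -0.19, beside 9.03% lower among all tested genes. They were Ttc30b (log2 fold change -1.54, SE 0.18, adjusted p = 0.000491) and Ttc30a1 (log2 fold change -1.05, SE 0.17, adjusted p = 0.00203), which encode the IFT-B subunit Ift70. They are near-identical copies, so their separate values are uncertain. Of the 6 fits without 1 sample, only that without KO 10 called Ttc30a1 (0.00274 to 0.00881).

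Among 17 tested Hedgehog genes, 4 (23.5%) were lower and 0 higher (median -0.15), beside 9.03% and 1.64% of all tested genes. In each fit without 1 sample 2 or 3 were lower, beside 4.16% to 6.34% of all tested genes. Evc (8.81, 9.67 and 8.75 TPM in the WT samples and 2.0, 2.85 and 1.98 TPM in the KO samples; log2 fold change -1.63, SE 0.15, adjusted p = 0.000211) and Evc2 (log2 fold change -1.0, SE 0.14, adjusted p = 0.00102) form a complex at the cilium base that promotes signalling by Smo. Kif7 (log2 fold change -1.35, SE 0.20, adjusted p = 0.00129) is a kinesin of the cilium tip and was not called without KO 3. Intu (log2 fold change -0.88, SE 0.17, adjusted p = 0.00442), a planar polarity effector that helps to assemble IFT-A, was called in no fit without 1 sample (0.00944 to 0.0198). The receptor Ptch1, the transducer Smo, the regulator Sufu and the transcription factors Gli2 and Gli3 overlapped between groups, with changes of -0.15, 0.01, -0.04, -0.17 and 0.22. The ligands Shh, Ihh and Dhh and the target gene Gli1 all averaged under 0.2 TPM in both groups, so their change was not tested.

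Of 29 tested basal body and ciliogenesis genes, 5 (17.2%) were lower and 0 higher (median -0.37), beside 9.03% and 1.64% of all tested genes. Cep131 (-1.05, adjusted p = 0.00141) is a centriolar satellite protein. Cep97 (-1.02, 0.00233) and Ccp110 (-0.93, 0.00284) form the cap that keeps the mother centriole from growing a cilium. Cep89 (-0.97, 0.00185) is a distal appendage protein. Between 0 and 3 of the 6 fits without a sample called each of these 4, and the adjusted p across them ran from 0.00168 to 0.00586 for Cep131 to 0.00526 to 0.0102 for Cep97. The count for the whole list was 2, 1, 1, 0, 4 and 2 without WT 4, WT 5, WT 8, KO 3, KO 7 and KO 10, where 4.16% to 6.34% of all tested genes were lower. Voom called 9 of the 29 lower, beside 14.5% of tested genes, 15 were lower at an unadjusted p below 0.05, beside 27.2%, and 16 had KO wholly below WT, beside 29.9%.

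The RFX factors had no lower value among those tested. Rfx1, Rfx3, Rfx5 and Rfx7 had changes of 0.08, 0.07, 0.28 and 0.52. None of the 4 was called by limma, while 1 was higher with voom and 1 at an unadjusted p below 0.05. Rfx7, at 10.3, 9.79 and 8.39 TPM in the WT samples and 12.6, 15.8 and 13.9 TPM in the KO samples, had the largest value (adjusted p = 0.0148). Rfx2, Rfx4, Foxj1, Mcidas and Myb were below the filter. Of these, Rfx2 was at 0.405, 0.577 and 0.678 TPM in WT and 0.188, 0.296 and 0.383 TPM in KO. It was lower in KO without overlap but not tested, and Rfx4 overlapped. Markers of epithelium, endothelium, muscle and neural cells, of which 3, 1, 2 and 2 were tested, had none called by limma or voom, with 2, 1, 0 and 1 higher at an unadjusted p below 0.05. Of 9 multiciliated cell markers in the table, 7 were below the filter and 2 were tested. Rsph1, at 1.35, 1.58 and 1.46 TPM in the WT samples and 0.501, 0.226 and 0.408 TPM in the KO samples (log2 fold change -0.84, adjusted p = 0.0125), and Ccdc39, at 0.945, 1.39 and 0.992 TPM in the WT samples and 0.554, 0.569 and 0.647 TPM in the KO samples (-0.40, adjusted p = 0.168), had KO below WT without overlap and were not called. Of the defining markers, Foxj1 averaged 0.255 TPM in WT and 0.439 in KO, and Dnah5, Dnah9 and Dnaic1 stayed under 0.1 TPM. The summed level of the 9 markers was 2.71 to 3.60 TPM in WT and 1.48 to 1.75 TPM in KO, and its part in the cilium gene values was not tested.

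Of 14 tested proliferation genes, 7 were lower and 0 higher, beside 9.03% and 1.64% of all tested genes. The other 7 were not called, and Pcna overlapped (-0.15). The median was -0.73, and Bub1 (-1.23), Ccnb2 (-1.02), Ccna2 (-0.94) and Mki67 (-0.91) led. Leaving out WT 4, WT 5, WT 8, KO 3, KO 7 or KO 10 left 3, 2, 7, 3, 3 and 5 of these genes called, beside 4.16% to 6.34% of all tested genes. Only Bub1 and Ccnb2 were called in all 6 fits. The summed level of the 14 proliferation genes was 909, 873 and 759 TPM in WT 4, WT 5 and WT 8 and 458, 618 and 584 TPM in KO 3, KO 7 and KO 10, the same order of samples as for the summed cilium genes within WT and within KO in the TPM as deposited. Removal of the 2 most abundant RNAs rescales all other genes of a sample alike. The cilium sums then had another order, with WT 5 and KO 10 highest. The proliferation sums take the same factor in each sample but were not computed in that setting. The new order of the cilium sums therefore does not show that the 2 lists differ in order there. Of 7 tested cilium disassembly genes, Plk1 (-0.86) and Nek2 (-0.83), kinases that also act in mitosis, were lower and 0 were higher. Without WT 5 the count was 0, Plk1 was called in the other 5 fits and Nek2 only in that without WT 8. Aurka was -0.51 (adjusted p = 0.0157). The part of cell cycle state in the cilium gene values was not tested.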

How the data were processed

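Per the methods of the study, libraries were made with a NEBNext Ultra kit and sequenced on an Illumina NovaSeq, and reads were mapped to mm10 with STAR. The submitters' processing notes name Bowtie 0.12.2 and mm10. The counting program is not given in the sources used here. The authors deposited 1 table of TPM values for 26898 genes in 6 samples. It also holds columns of the authors' own log2 fold changes and adjusted p-values, which were not used. TPM are shares of a library, so a few abundant RNAs move all other values. Gene positions were taken from GENCODE M21 (GRCm38), where all 26898 identifiers matched. TPM times exon length gave whole reads (tolerance 0.05) for 100% of checked values in each sample, 17655495 to 27718259 reads per sample. The cilium genes had a median of 108 to 325 reads per sample, and the lowest value was 15.

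The 14799 genes whose WT or KO mean reached 1 TPM were fitted with limma 3.58.1 (R 4.3.3, trended variance, no covariates, 3 WT against 3 KO, two-sided) on log2(TPM + 1), a scale that understates the change of low genes. P-values were Benjamini-Hochberg adjusted over all genes tested. The study gives 3 mice per group, and whether embryos shared a dam is not given in the sources used here. Alternatives were other pseudocounts and filters, median-of-ratios scaling, a constant variance, voom on the recovered reads, an adjusted p of 0.05 and leaving out each sample. Named cilium genes are those called. Full statistics are given for up to 14 with the largest change, for the largest of each role group and for Ttc8. By the same rule other cilium genes are given by counts and ranges, and up to 4 called genes are named from each other list. The values of further uncalled cilium genes (such as Wdr34, Dync2h1 and Bbs5) and other further names were added after their values were seen. The genes and lists were chosen with earlier results of these data known. The name and values of 1 called gene of the basal body list are not reported here.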

Additional observations from a re-analysis of the deposited data

How the results depend on the processing

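The number of cilium genes called lower (16 as reported) was 5 with no filter on low values, beside 1.06% of all 26898 genes. With a filter of 10 TPM, 16 of the 53 genes were tested and 6 called (37.5%), beside 14.1% of 8230 genes. It was 27 at an adjusted p below 0.05 and 28 with voom, beside 16.6% and 14.5% of tested genes. Without 1 sample it was 8 to 14, beside 4.16% to 6.34% of tested genes. Other pseudocounts, a constant variance, median-of-ratios scaling and removal of the 2 most abundant RNAs gave 15 to 19. Among all tested genes these called 7.76% to 11.3% lower. None of the settings above called a cilium gene higher. Called under every alternative that tested them were Ift27, Ift52, Ttc21b, Tctn2 and Tmem231. For all tested genes, 1579 as reported (1337 lower and 242 higher), the counts of changed, lower and higher genes were 341, 286 and 55 with no filter, 3147, 2453 and 694 at an adjusted p below 0.05, and 2585, 2152 and 433 with voom. Median-of-ratios scaling gave 442 higher. Without 1 sample they were 758 to 1081 changed, 617 to 938 lower and 84 to 252 higher. Signs turned in Wdr35 (0.0398) and Arl3 (0.0259) under median-of-ratios scaling, and without 1 sample Wdr35 ran from -0.1006 to 0.0195, Arl3 from -0.1354 to 0.0418 and Ahi1 from -0.0607 to 0.0919. Where fewer samples or more genes entered, the adjustment itself changed; otherwise the cause was not tested. No paired analysis was possible because no replicate number occurs in both groups. With 3 samples a group and as few as 15 reads for a gene, changes of low genes that lie within their intervals may have been missed. How detection depends on depth was not tested.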
